A study of Mus musculus with 108 samples.

Results

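The genes described here are the 7 globin genes of the mouse that are annotated under the names Hbb-bs, Hbb-bt, Hbb-y, Hbb-bh1, Hba-a1, Hba-a2 and Hba-x, with the red cell genes Alas2 and Slc4a1. They were chosen by name and not by a rule on measured values, although earlier results of these data were known. All 9 were matched by Ensembl identifier among the 53465 genes of the count table. Bulk RNA-seq of total RNA was carried out on 3 brain regions, the cerebral cortex (CX), the cerebellum (CB) and the hippocampus (HIP). The mice were wild-type (WT) or heterozygous Cul3+/- (HET), and were embryos at stage E17.5 or had reached postnatal day 7 (P7) or 35 (P35). The labels give the strain as C56Bl/6N, and the mutation is a germline 1 bp frameshift insertion in exon 6 of Cul3, expanded from 1 founder, so that it was present in every tissue and the WT mice carried no other allele or agent. There were 6 mice per genotype at E17.5 and at P7. At P35, 5 mice per genotype were used, because the sources gave opposite genotypes for the other 2 mice, whose 6 libraries were left out, and 102 of 108 libraries from 34 mice remained. By the study's design each genotype and period held males and females, but the labels do not give the sex of each mouse, and no fit here holds it. Litter, and whether these mice were perfused before dissection, are not given in the sources used here.

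Hemoglobin is a tetramer of alpha-type and beta-type globin chains, each holding a heme group. During development the erythroid lineage switches genes: primitive red cells from the yolk sac use the embryonic beta-type genes Hbb-y (epsilon-y) and Hbb-bh1 (beta-h1) and the embryonic alpha-type gene Hba-x (zeta), whereas definitive red cells from the fetal liver and the bone marrow use Hbb-bs and Hbb-bt (adult beta) and Hba-a1 and Hba-a2 (adult alpha). Alas2 encodes the erythroid enzyme of the first step of heme synthesis, and Slc4a1 encodes band 3, the anion exchanger of the red cell membrane. The brain is not a site of red cell production. Globin transcripts in dissected brain tissue can come from blood in its vessels and, at low levels, from neurons and glia, and in these bulk samples fewer cells of a type and less RNA per cell cannot be told apart.

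The beta-type genes stand in 1 cluster on chromosome 7, all on the minus strand in GRCm38: Hbb-bt (ENSMUSG00000073940, 103812524 to 103813996), Hbb-bh1 (ENSMUSG00000052217, 103841637 to 103843164), Hbb-bs (ENSMUSG00000052305, 103826534 to 103828096) and Hbb-y (ENSMUSG00000052187, 103851749 to 103853216). The alpha-type genes stand on the plus strand of chromosome 11, with Hba-x first (ENSMUSG00000055609, 32276400 to 32278116), followed by Hba-a1 (ENSMUSG00000069919, 32283511 to 32284465) and Hba-a2 (ENSMUSG00000069917, 32296489 to 32297298). Alas2 (ENSMUSG00000025270) lies at 150547375 to 150570638 on chromosome X, and Slc4a1 (ENSMUSG00000006574) at 102348824 to 102366203 on chromosome 11. The first 90 coding bases of the globins are shown because they decide which counts can be kept apart. Capitals mark bases that differ from Hbb-bs in the beta-type genes and from Hba-a1 in Hba-x.
Hbb-bs, chr7:103827786-103827875, minus strand, GRCm38: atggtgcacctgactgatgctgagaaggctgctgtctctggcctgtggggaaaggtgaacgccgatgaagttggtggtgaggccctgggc
Hbb-y, chr7:103853063-103853152, minus strand: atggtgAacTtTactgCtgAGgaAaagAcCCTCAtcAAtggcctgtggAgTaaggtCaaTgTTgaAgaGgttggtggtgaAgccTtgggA
Hbb-bh1, chr7:103843021-103843110, minus strand: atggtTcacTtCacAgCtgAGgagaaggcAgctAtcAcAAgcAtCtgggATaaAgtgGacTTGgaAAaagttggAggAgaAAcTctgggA
Hba-a1, chr11:32283707-32283796, plus strand: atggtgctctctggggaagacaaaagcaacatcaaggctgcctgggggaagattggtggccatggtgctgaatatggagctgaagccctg
Hba-x, chr11:32276664-32276753, plus strand: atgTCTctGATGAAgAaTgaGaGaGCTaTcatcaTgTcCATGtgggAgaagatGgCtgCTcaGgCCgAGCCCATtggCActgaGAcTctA

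Hbb-bt (chr7:103813780-103813869) has the same 90 bases as Hbb-bs, and Hba-a2 (chr11:32296524-32296613) the same as Hba-a1. Over the whole coding sequence Hbb-bt and Hbb-bs differed at 1 of 444 bases, and Hba-a2 and Hba-a1 at 1 of 429. The split of counts between the members of each adult pair is therefore uncertain and rests on their untranslated ends, so their sums are given beside them. Hbb-y differed from Hbb-bs at 26 of the 90 bases, Hbb-bh1 at 29, and Hba-x differed from Hba-a1 at 44. Over the coding sequence the identity was 74.3% for Hbb-y and 74.1% for Hbb-bh1 with Hbb-bs, and 62% for Hba-x with Hba-a1. The embryonic genes shared no stretch of 100 bases with an adult gene, so their counts are kept apart more surely than those within an adult pair.

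The adult genes moved together in the values below, and the 130 bases before the start of an adult and an embryonic gene of each type are shown beside them, from RefSeq on GRCm38.p6. Capitals mark 4 short motifs that were searched on both strands and do not overlap one another in these windows. They are the CACCC box that Klf1 and related factors bind, the CCAAT box of many promoters, the TATAA box near the start, and GATAA, the site of GATA factors.
Hbb-bs, chr7:103827929-103828058, minus strand: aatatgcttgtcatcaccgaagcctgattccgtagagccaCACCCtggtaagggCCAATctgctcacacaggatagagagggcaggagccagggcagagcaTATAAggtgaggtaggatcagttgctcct
Hbb-y, chr7:103853208-103853337, minus strand: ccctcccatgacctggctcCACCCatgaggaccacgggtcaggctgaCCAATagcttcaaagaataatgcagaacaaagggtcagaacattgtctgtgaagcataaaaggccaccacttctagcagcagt
Hba-a1, chr11:32283542-32283671, plus strand: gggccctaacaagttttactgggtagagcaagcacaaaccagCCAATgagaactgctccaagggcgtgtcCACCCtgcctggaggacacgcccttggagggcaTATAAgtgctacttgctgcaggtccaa
Hba-x, chr11:32276470-32276599, plus strand: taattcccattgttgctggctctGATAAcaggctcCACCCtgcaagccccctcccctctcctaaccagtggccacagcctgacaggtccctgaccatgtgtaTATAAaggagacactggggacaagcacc

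CACCC stood 90 bases before the start in Hbb-bs, 111 in Hbb-y, 60 in Hba-a1 and 95 in Hba-x, and 33.7% of the 32851 mouse promoters of this length in the same table hold it. CCAAT stood at 76, 83 and 88 bases in Hbb-bs, Hbb-y and Hba-a1 and was not among these letters in Hba-x, against 22.4% of all promoters. TATAA stood 29, 27 and 28 bases before the start in Hbb-bs, Hba-a1 and Hba-x and was not among these letters in Hbb-y, against 12.7%. GATAA stood in Hba-x alone of these 4, at 107 bases, against 11.4%. The windows of Hbb-bs, Hba-a1 and Hba-x lie wholly within the gene spans of the GENCODE annotation given above, and that of Hbb-y overlaps its span at one end. Such matches are a description of letters, with no value of binding in these data.

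The libraries held 15126093 to 44411259 counts. Levels are given as CPM (counts scaled to library size) corrected by the trimmed mean of M values (TMM), and a gene was called when its adjusted p in edgeR's quasi-likelihood test was at or below 0.1. Cul3 checked the labels: its level was 154 to 221 CPM in the WT and 82.8 to 129 CPM in the HET libraries, with no overlap, and it was called lower in HET in each of the 9 region-by-period datasets (log2 fold change -0.74 to -0.99). Summed cerebellar markers (En1, Gabra6, Pcp2 and others) had medians of 3.72, 30.5 and 65.0 CPM in CX at E17.5, P7 and P35, against 479, 885 and 3873 CPM in CB. Choroid plexus markers stood apart in some libraries, with a range of 14.01 to 4767 CPM in the E17.5 HIP libraries. The E17.5 mice fell into 3 sets of 4 by the first part of the mouse name (S2, S3 and S4, each with 2 WT and 2 HET mice), and the P7 mice into sets named C1, C2 and C4 of 4, 6 and 2 mice. The labels do not give what these prefixes mean. The changes in level and in embryonic share from E17.5 to P7 are given with and without the S3 mice. No fit is given without a P7 set, and the change of the Hbb-bt part with age is given with all mice only.

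At E17.5 the globin transcripts of all 3 regions were already almost wholly of the adult type. Over the 36 libraries, Hbb-y and Hbb-bh1 made up 2579 of 584411 beta-type counts, or 0.441% (95% Clopper-Pearson interval 0.424 to 0.459%), and Hba-x made up 416 of 439596 alpha-type counts, or 0.0946% (0.0858 to 0.104%). Intervals and limits of this kind cover counting error only. Hbb-y held 2544 of the embryonic beta-type counts and Hbb-bh1 the other 35. Per kilobase of exon, the median level in E17.5 CX was 530 CPM for Hbb-bs, 323 for Hba-a2, 193 for Hba-a1 and 169 for Hbb-bt, against 0.307 for Hbb-y, 0.0952 for Hba-x and 0 for Hbb-bh1. The median level per kilobase of Alas2 was 4.01 CPM and that of Slc4a1 was 0.286 CPM in the same libraries.

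After birth the embryonic genes were close to undetectable. At P7, 20 of 275488 beta-type counts were embryonic, a share of 0.00726% (0.00443 to 0.0112%), of which 19 were Hbb-y and 1 was Hbb-bh1. At P35 it was 21 of 166817, all Hbb-y, or 0.0126% (0.00779 to 0.0192%). Hba-x had no count in any P7 or P35 library, 0 of 214566 and 0 of 118434 alpha-type counts, which allows shares of up to 0.00140% and 0.00253%. A count of embryonic beta-type globin was found in 34 of 36 libraries at E17.5 (11, 12 and 11 of 12 in CX, HIP and CB), in 3, 7 and 4 of 12 at P7 and in 4, 4 and 5 of 10 at P35.

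The mean embryonic share of beta-type counts per library fell between E17.5 and P7 from 0.394% to 0.00598% in CX, from 0.386% to 0.0120% in HIP and from 0.392% to 0.00301% in CB (12 against 12 libraries, 2-sided permutation test of 100000 resamples, Benjamini-Hochberg adjusted over 24 tests, adjusted p = 0.00261, 0.00785 and 0.00016). The spread at E17.5 was larger than the mean, with an SD of 0.985% in CX and 0.970% in HIP. On ranks, the adjusted p was 0.00165, 0.00766 and 0.000514. The embryonic share of alpha-type counts fell from 0.118%, 0.0594% and 0.0908% to 0 in CX, HIP and CB (adjusted p = 9.6e-05, 0.00081 and 0.000274). Between P7 and P35 the beta-type share did not pass the test in any region (adjusted p = 0.35, 0.863 and 0.162 in the permutation test). The size of the E17.5 share rested on 1 mouse, E17.5 HET replicate 4: without it the fall in the beta-type share was -0.107, -0.0969 and -0.104 percentage points in place of -0.388, -0.374 and -0.389, and the fall in the alpha-type share was -0.0537, -0.0358 and -0.0382 in place of -0.118, -0.0594 and -0.0908. Leaving out any 1 of the 12 P7 mice raised the adjusted p of the beta-type share above 0.05 (0.0747 to 0.0817), with the fall at -0.373 to -0.390 percentage points. The P7 group was then the smaller one. Relabelings that place the few high E17.5 mice in the smaller group can exceed the observed difference of means. The rise came with each P7 mouse left out, and its cause was not tested. The p from groups of equal size is read with this limit.

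**Figure D1:**
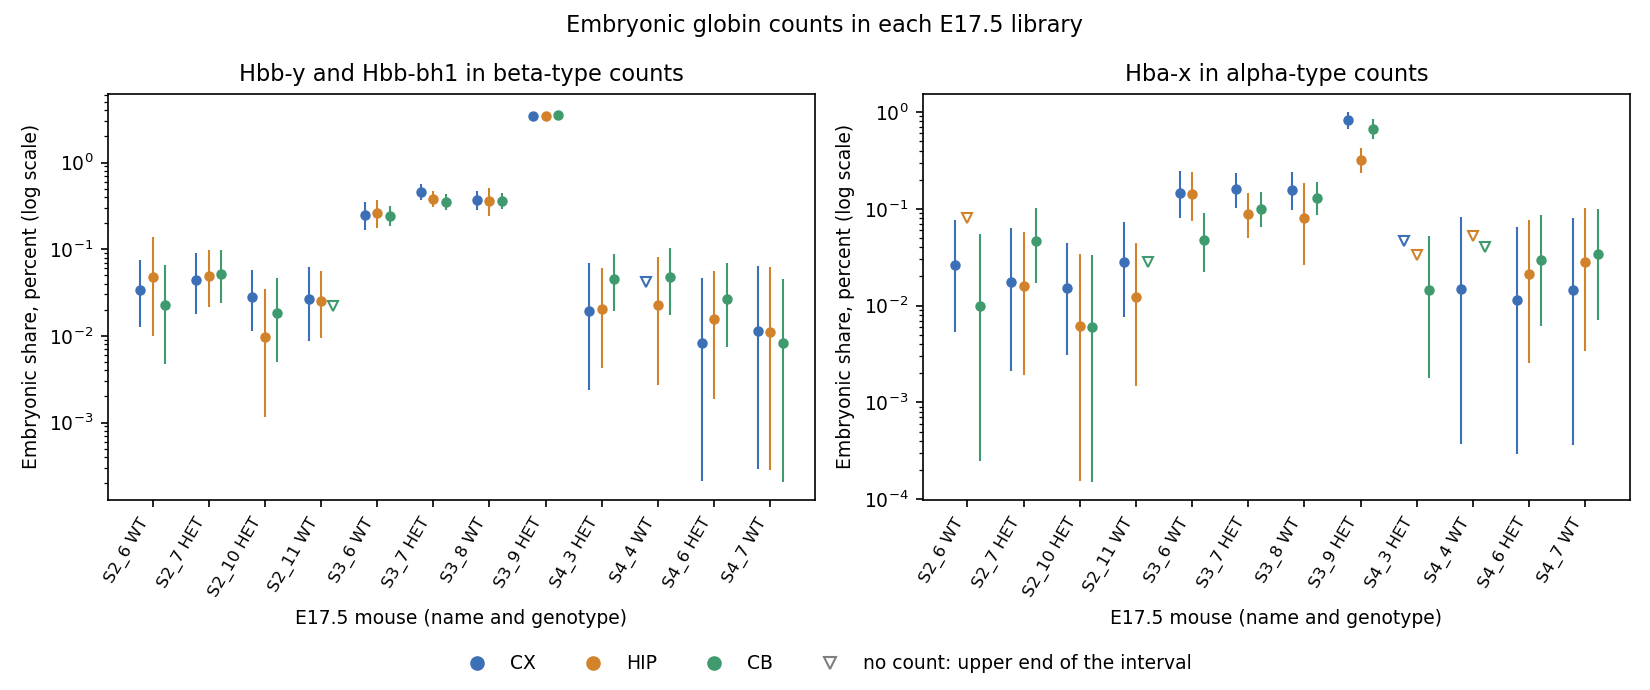
Embryonic share of beta-type (left) and alpha-type (right) globin counts, in percent on a log axis, for each E17.5 mouse in CX, HIP and CB; bars are 95% Clopper-Pearson intervals and open triangles mark libraries with no count at the upper end of the interval. HET replicate 4 stands at 3.43 to 3.52% for the beta-type genes, the other S3 mice at 0.244 to 0.458%, and the S2 and S4 mice at or below 0.0523%.

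The E17.5 mice ranged from 0 to 751 Hbb-y counts per library, and the same mice were high in all 3 regions. HET replicate 4 had 600, 751 and 522 Hbb-y counts in CX, HIP and CB (20.9, 25.3 and 15.6 CPM). HET replicate 3 had 93, 86 and 96 counts, WT replicate 4 had 62, 31 and 96, and WT replicate 3 had 32, 30 and 56. These 4 mice carry the prefix S3, and no library of another prefix reached their lowest value. The 4 S2 mice had 0 to 9 counts per library and the 4 S4 mice 0 to 8. Hba-x was also highest in HET replicate 4 in every region, with 99, 48 and 75 counts, and had 25, 15 and 25 in HET replicate 3, 21, 5 and 27 in WT replicate 4 and 14, 13 and 9 in WT replicate 3. The other 8 mice had 0 to 6 counts per library. As a share of the counts of its own type, the embryonic beta-type genes of HET replicate 4 made up 3.48%, 3.43% and 3.52% in the 3 regions, and Hba-x made up 0.822%, 0.318% and 0.669%.

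A test of the 3 prefixes, added after the values were seen, with genotype in the fit, is given for the 4 adult globins, Alas2 and Slc4a1 only. Hbb-y and Hba-x prompted it and passed the low-count filter only through the mice where they are high, so their p-values are not read. All 6 were called in CX and in HIP (edgeR quasi-likelihood test), as were 4 of 6 in CB, where Hbb-bs (adjusted p = 0.158) and Alas2 (0.110) were not. The background was wide: 42.9% of all genes tested were called in CX, 30.1% in HIP and 28.1% in CB. The adult genes differed by prefix in level, with a median Hbb-bs of 433, 428 and 281 CPM in the S2, S3 and S4 mice in CX. Slc4a1 was highest in the S3 mice, with medians of 2.76, 3.22 and 3.56 CPM in CX, HIP and CB against 1.40, 1.53 and 1.39 CPM in S2 and 0.963, 1.06 and 1.03 CPM in S4. At P7 the same kind of test called 4 of 6 members in CX, against 1.59% of all genes, and none of 6 in HIP (4 at an unadjusted p under 0.05, 0% of all genes called) or CB (5 at an unadjusted p under 0.05, 0.0748% of all genes called). DESeq2 was not run on the prefixes. What the prefixes stand for was not tested.

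With WT libraries alone, the fall in the beta-type share between E17.5 and P7 did not pass in any region (permutation test, adjusted p = 0.075, 0.0742 and 0.075 in CX, HIP and CB), nor did that in the alpha-type share in HIP or CB (0.132 in each). With HET alone the beta-type share did not pass in CX (adjusted p = 0.0519 by permutation) or HIP (0.152).

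With the S3 mice left out, the embryonic shares were small but still fell between E17.5 and P7. The mean beta-type share changed by -0.0155, -0.0133 and -0.0246 percentage points in CX, HIP and CB (permutation test, adjusted p = 0.0349, 0.109 and 0.00232, 8 against 12 libraries), so that HIP no longer passed. The alpha-type share changed by -0.0160, -0.0104 and -0.0176 percentage points (adjusted p = 0.000619, 0.00963 and 0.00248).

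The adult globins themselves fell steeply with age. Hbb-bs had its lowest, median and highest level at 249, 407 and 605 CPM in E17.5 CX (n = 12), at 94.1, 139 and 189 CPM at P7 (n = 12), and at 71.4, 116 and 157 CPM at P35 (n = 10). In HIP the same values were 224, 389 and 628 CPM at E17.5, 112, 144 and 251 CPM at P7, and 72.4, 103 and 159 CPM at P35. In CB they were 269, 358 and 556 CPM, then 139, 222 and 290 CPM, then 152, 225 and 400 CPM. The E17.5 and P7 ranges did not overlap in CX, overlapped at their edges in HIP and CB, and the P7 and P35 ranges overlapped in every region.

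Hbb-bt, the adult beta-type gene with the lower level per kilobase, had medians of 119, 25.9 and 20.6 CPM in CX at the 3 ages, 111, 27.2 and 17.2 CPM in HIP, and 105, 41.7 and 42.7 CPM in CB. Hba-a1 had medians of 157, 55.8 and 41.3 CPM in CX, 159, 56.4 and 32.2 CPM in HIP, and 144, 91.2 and 75.7 CPM in CB. Hba-a2 had medians of 215, 71.7 and 56.8 CPM in CX, 211, 72.6 and 45.8 CPM in HIP, and 197, 120 and 110 CPM in CB. All 4 adult genes thus lost most of their level between E17.5 and P7 in CX and HIP and less of it in CB. Summed, the 4 had a median of 885, 289 and 234 CPM in CX, and 788, 486 and 453 CPM in CB, and the 7 globins together made up a median of 0.0897% of all counts in E17.5 CX and 0.0203% in P35 CX.

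Alas2 ran from a median of 9.65 CPM in E17.5 CX to 4.90 CPM at P7 and 4.04 CPM at P35, from 10.3 to 5.05 to 3.003 CPM in HIP, and from 9.67 to 8.52 to 7.66 CPM in CB. Slc4a1 had medians of 1.40, 0.706 and 0.248 CPM in CX, 1.53, 0.920 and 0.213 CPM in HIP, and 1.44, 1.67 and 1.365 CPM in CB. In P35 HIP its lowest library was at 0.0322 CPM and its highest at 0.415 CPM, whereas in P35 CB it spanned 1.04 to 1.79 CPM, with no overlap between the 2 regions.

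**Figure D2:**
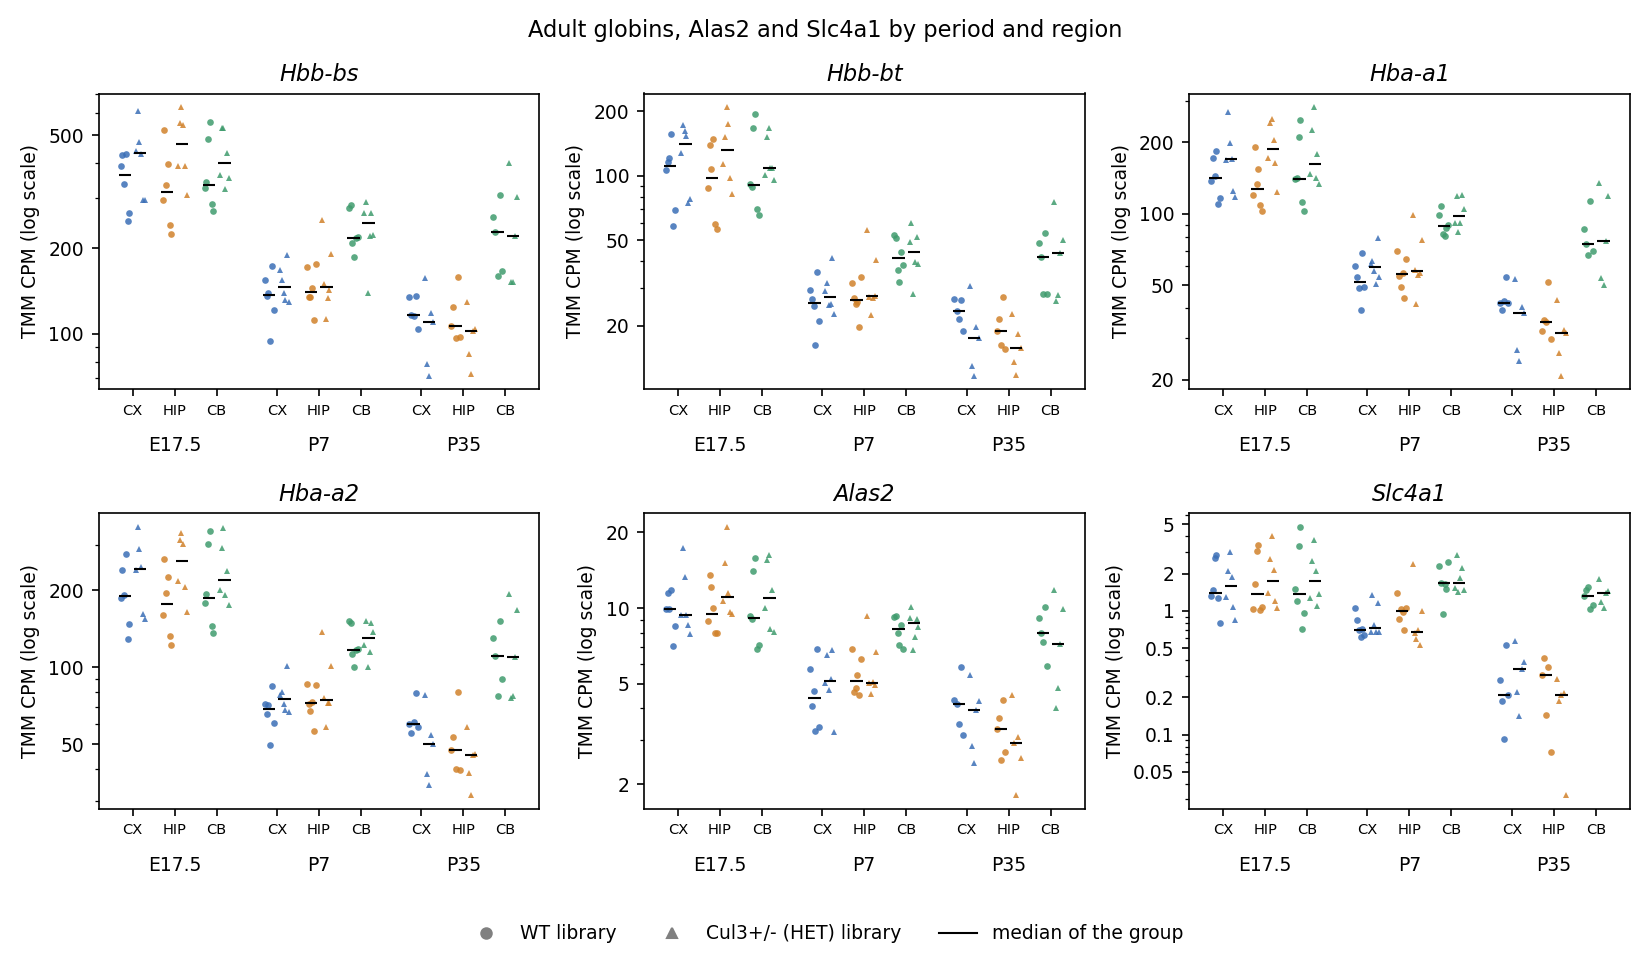
Level of Hbb-bs, Hbb-bt, Hba-a1, Hba-a2, Alas2 and Slc4a1 in every library, in TMM-scaled CPM on a log axis, by period, region and genotype; each point is 1 library and each line the median of its group. Hbb-bs falls from a median of 407 to 139 to 116 CPM in CX, while in CB it goes from 358 to 222 to 225 CPM.

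From E17.5 to P7, all 6 members that passed the low-count filter were called lower in both CX and HIP, and 5 of the 6 were called lower in CB. Of all genes tested, 43.6%, 43.3% and 40.8% were called lower in CX, HIP and CB. The 3 embryonic globins did not pass that filter. The median log2 fold change over all genes was 0.017, -0.019 and -0.012. In CX the log2 fold change was -1.41 for Hbb-bs (SE 0.129, adjusted p = 6.58e-12), -2.08 for Hbb-bt (SE 0.173), -1.47 for Hba-a1 (SE 0.129), -1.57 for Hba-a2 (SE 0.140), -1.06 for Alas2 (SE 0.152) and -1.04 for Slc4a1 (SE 0.223, adjusted p = 7.11e-05). In HIP the 6 values ran from -1.94 for Hbb-bt to -0.96 for Slc4a1. In CB they were smaller, -0.78 for Hbb-bs (SE 0.155, adjusted p = 3.55e-05), -1.44 for Hbb-bt, -0.84 for Hba-a1, -0.85 for Hba-a2 and -0.40 for Alas2 (adjusted p = 0.0195), and Slc4a1 was not called (-0.18, SE 0.242, adjusted p = 0.496). With WT alone Alas2 was not called in CB (-0.34, adjusted p = 0.116). Without the S3 mice the globins were still called lower in all 3 regions, with Hbb-bs at -0.62 in CB, but Alas2 in CB was not called (-0.20, adjusted p = 0.228), and Slc4a1 in CB turned to a call in the other direction (0.48, SE 0.185, adjusted p = 0.0219). Slc4a1 was then at -0.63 in CX (adjusted p = 0.00651) and -0.49 in HIP (adjusted p = 0.0901).

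From P7 to P35 the members fell again in CX and HIP, and in CB the changes were near 0 for the globins. All 6 were called lower in CX and in HIP and 1 of 6 in CB, beside 40%, 36.9% and 42.4% of all genes tested, with all-gene medians of -0.027, -0.020 and -0.0078. In CX the log2 fold changes were -0.37 for Hbb-bs (SE 0.133, adjusted p = 0.0126), -0.44 for Hbb-bt, -0.55 for Hba-a1, -0.39 for Hba-a2 and -0.36 for Alas2 (adjusted p = 0.0466). With the WT libraries alone, only Hba-a1 and Slc4a1 of the 6 were called in CX. In HIP they were -0.55, -0.76, -0.86, -0.75 and -0.88 in the same order, and with WT alone Hbb-bs was not called there (-0.35, adjusted p = 0.137). Slc4a1 changed most, by -1.56 in CX (SE 0.283, adjusted p = 9.84e-06) and -2.19 in HIP (SE 0.351, adjusted p = 1.73e-06). Without P7 WT replicate 5 Alas2 was not called in CX (-0.29, adjusted p = 0.101), and without P35 HET replicate 1 Hba-a1 was called in CB (-0.32, adjusted p = 0.0720). Slc4a1 was the single call in CB (-0.48, SE 0.264, adjusted p = 0.0943), which was lost on leaving out any 1 of 13 mice (log2 fold changes -0.49 to -0.40), and Hbb-bs in CB had a log2 fold change of -0.02 (adjusted p = 0.908). A test of period by region on all libraries called 6 of the 8 members tested, the 4 adult globins, Alas2 and Slc4a1, as it did 93.5% of all genes. Hbb-y and Hba-x were the other members tested, and their p-values are not read. Both passed the filter only through the E17.5 libraries, and Hba-x had no count at P7 or P35, so the test could not decide for them.

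No member was called between regions at E17.5, and by P7 all 6 were called between CB and the other regions. With each mouse as its own block, edgeR called 0 of 7 members between any 2 regions at E17.5, and 0 had an unadjusted p under 0.05, whereas 73% of all genes were called for CB against CX, 64.6% for HIP against CX and 65% for CB against HIP. DESeq2 called 1, 0 and 0 of the 7 in these comparisons. In edgeR, leaving out WT replicate 1, 2 or 5 gave 1 call for CB against CX (Slc4a1, log2 differences 0.20 to 0.26), and leaving out WT replicate 1, 4 or 5 gave calls for HIP against CX (Alas2 at 0.19 and 0.16, Slc4a1 at 0.22 and 0.21). At P7 all 6 tested members were higher in CB than in CX, with log2 differences of 0.67 for Hbb-bs, 0.65 for Hbb-bt, 0.74 for Hba-a1, 0.79 for Hba-a2, 0.76 for Alas2 and 1.12 for Slc4a1, and 46.9% of all genes were called higher. All 6 were also higher in CB than in HIP, from 0.57 for Hbb-bt to 0.95 for Slc4a1 (44.7% of all genes). HIP against CX gave 1 call, Alas2 at 0.16 (adjusted p = 0.0918), where 33.5% of all genes were called higher. That call was lost when any of 5 mice was left out (as numbered in CX, WT replicates 1, 4 and 6 and HET replicates 2 and 6, log2 differences of 0.12 to 0.16).

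At P35 the differences between CB and the other regions were larger in value. CB stood above CX by 0.94 for Hbb-bs, 0.94 for Hbb-bt, 0.98 for Hba-a1, 0.97 for Hba-a2, 0.90 for Alas2 and 2.18 for Slc4a1 on the log2 scale, and above HIP by 1.05, 1.16, 1.26, 1.24, 1.26 and 2.59. All 6 were called in both, where 43.2% and 41.6% of all genes were called higher. HIP lay below CX for 4 of 6 members, Alas2 (-0.36, adjusted p = 0.00124), Hba-a1 (-0.28, 0.00172), Hba-a2 (-0.27, 0.0108) and Hbb-bt (-0.21, 0.0330), while Hbb-bs (-0.11) and Slc4a1 (-0.41) were not called, and 31.3% of all genes were called lower. Summed markers of other cell types also differed by region: endothelial markers (Cldn5, Pecam1, Flt1 and 4 others) had medians of 197, 248 and 280 CPM in CX, HIP and CB at P7 and 219, 214 and 252 CPM at P35, and at E17.5, where edgeR called no member, 164, 270 and 190 CPM. Their part in the result was not tested.

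Beside the fall in level, the proportions between the genes changed less. The ratio of alpha-type to beta-type counts had a median of 0.759, 0.738 and 0.761 in CX, HIP and CB at E17.5, of 0.764, 0.759 and 0.793 at P7 and of 0.702, 0.645 and 0.717 at P35. The fall from P7 to P35 passed the permutation test in HIP (log2 change -0.23, adjusted p = 8e-05) and in CB (-0.15, adjusted p = 0.032) and not in CX (-0.08, adjusted p = 0.118). In CB the call was lost on leaving out any 1 of 13 mice (log2 changes -0.154 to -0.111, adjusted p up to 0.072), and in CX a call was gained without P35 WT replicate 4 or 6 (-0.100 in each).

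The Hbb-bt part of the adult beta-type counts fell with age, with medians of 21.9%, 22.1% and 21.9% at E17.5, 15.6%, 16.1% and 15.4% at P7 and 15.5%, 14.4% and 15.2% at P35. At E17.5 it also followed the prefix in every region, at 23.99 to 27.2% in the S3 mice, 20.7 to 22.8% in the S2 mice and 19.0 to 21.3% in the S4 mice. Since reads from the shared coding part are divided between the pair by the counting model, this is a split of estimated counts. Alas2 fell less than the globins did. There were a median of 82.3, 78.4 and 82.5 globin counts per Alas2 count at E17.5, 61.0, 57.2 and 60.2 at P7 and 58.6, 66.0 and 62.4 at P35. The log2 ratio of Alas2 to globin counts rose by 0.45, 0.45 and 0.50 from E17.5 to P7 in CX, HIP and CB (permutation test, adjusted p = 9.6e-05, 8e-05 and 8e-05) and then changed by -0.23 in HIP (adjusted p = 0.00271).

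**Figure D3:**
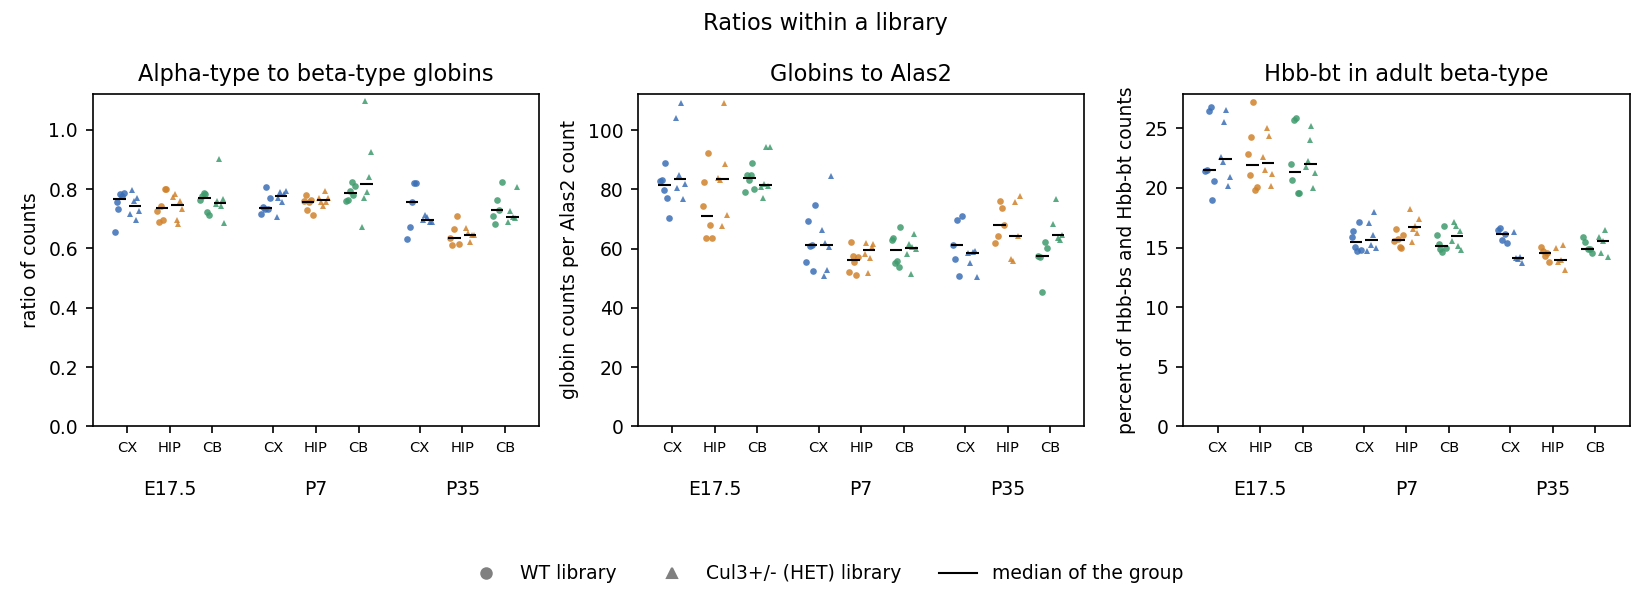
Ratio of alpha-type to beta-type globin counts, globin counts per Alas2 count, and Hbb-bt as a percent of adult beta-type counts in every library, by period, region and genotype, on axes that start at 0; lines are group medians. The Hbb-bt percent goes from 21.9% to 15.6% to 15.5% in CX, and globin counts per Alas2 count from 82.3 to 61.0 to 58.6.

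At E17.5 and P35 a mouse with a high globin level in 1 region had a high level in the others. The measure was the log2 CPM of the 4 adult globins summed, as a deviation from the mean of the mouse's genotype, and 9 relations were computed. At P35 (n = 10) Pearson's r was 0.8503 between CX and HIP, 0.891 between CX and CB and 0.874 between HIP and CB (permutation test, adjusted p = 0.00445, 0.00225 and 0.00312), and 0.714, 0.804 and 0.783 without the 2 mice farthest from the median. At E17.5 (n = 12) the r was 0.863, 0.653 and 0.645 (adjusted p = 0.00225, 0.0343 and 0.0343), with Spearman's rho at 0.888, 0.566 and 0.706, and the middle one did not pass on ranks (adjusted p = 0.0652). At P7 (n = 12) it was 0.472, 0.519 and 0.712 (adjusted p = 0.12, 0.0942 and 0.0161), and the last fell to 0.462 without the 2 farthest mice, on which it rested. Taken as deviations from the mean of the prefix, r at E17.5 was 0.781, 0.609 and 0.449, and at P7 -0.038, 0.133 and 0.455. The prefix sets held 2 to 6 mice, too few for a value in each, and at P35 the names carry none.

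**Figure D4:**
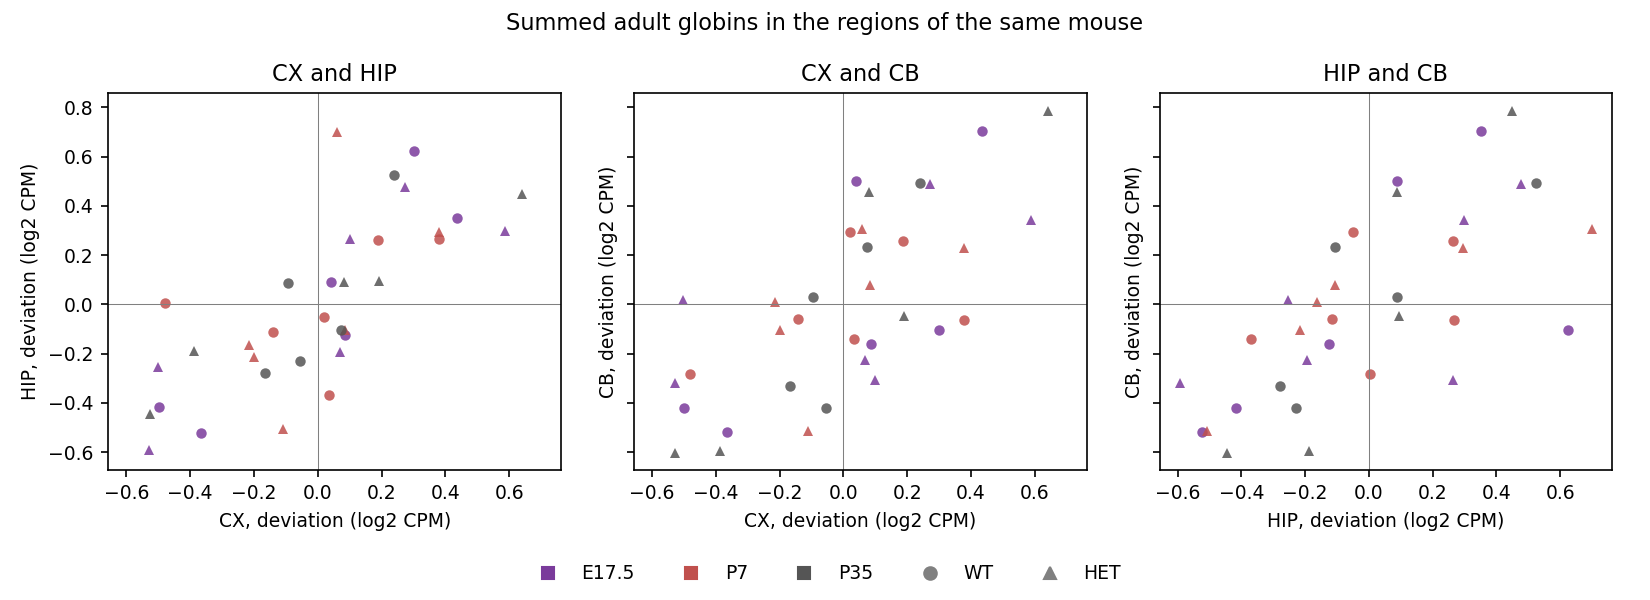
Deviation of the log2 CPM of the summed adult globins from the mean of the mouse's genotype in 1 region against another, 1 point per mouse, coloured by period. The P35 mice lie near a line in each panel (Pearson's r 0.8503 to 0.891, n = 10), and the P7 mice scatter more (0.472 to 0.712, n = 12).

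The study set out to find what Cul3 haploinsufficiency does to expression, and neither globins nor erythroid genes were called between the genotypes. In edgeR's quasi-likelihood test, 0 of 6 members were called in each of the E17.5 and P7 datasets and in P35 CB, and 0 of 5 in P35 CX and HIP, where Slc4a1 did not pass the filter. DESeq2 also called 0 in all 9. The share of all genes called was 0.00603%, 0.00586% and 0.00568% in E17.5 CX, HIP and CB, 0.00566%, 0.00563% and 0.0057% at P7, and 0.00569%, 0.00584% and 0.00584% at P35, which is 1 gene, Cul3, in each. The study itself, at the same threshold of 0.1, reported many more genes between the genotypes in each period. Its edgeR model held sex and estimated factors of unwanted variation. The main genotype fits here hold neither, so the counts of called genes cannot be compared directly. An alternative fit held estimated factors of unwanted variation but not sex, with upper-quartile scaling and edgeR's likelihood ratio test. It called 0 members in all 9 datasets, and its count over all genes is not given here. Whether members are among the study's genes is not given here. At an unadjusted p under 0.05 the fits here gave 3 members in E17.5 HIP, by edgeR and by DESeq2, and 0 in the other 8 datasets.

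Those 3 were Hba-a1, Hba-a2 and Hbb-bs. Hba-a1 in E17.5 HIP had its lowest, median and highest level at 102, 127 and 191 CPM in the 6 WT mice and at 123, 188 and 250.04 CPM in the 6 HET mice. The ranges overlapped, and the log2 fold change was 0.51 (SE 0.188, unadjusted p = 0.0177 and adjusted p = 0.941 in edgeR). It was 0.49 for Hba-a2 and 0.48 for Hbb-bs with the same adjusted p. At P35 the 5 tested members had negative values in both CX (-0.13 to -0.33) and HIP (-0.15 to -0.27), and in P35 HIP Hbb-bs spanned 97.2 to 159 CPM in WT and 72.4 to 129 CPM in HET. A test of genotype by period called 0 members and 0% of all genes in CX, 0% in HIP and 0% in CB by edgeR; 1 member, Hba-a1 in HIP, had an unadjusted p under 0.05 (0.0362). DESeq2 was not run on that test.

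The ratios held no call either. Of 36 tests of the embryonic shares, the alpha to beta ratio and the ratio of Alas2 to globin counts between genotypes, 0 passed an adjusted p of 0.05, and the smallest exact permutation p was 0.00794, for the log2 ratio of Alas2 to globin counts in P35 CB (mean -5.81 in 5 WT and -6.07 in 5 HET mice, adjusted p = 0.286). That p is the lowest this test can give with 5 mice per genotype. At these group sizes no single test could pass alone after adjustment over 36 tests. The Hba-x share was 0 in every P7 and P35 library, so its tests there could not differ. No conclusion is drawn from the absence of a call. Hbb-y in E17.5 CX had a median of 0.157 CPM in WT and 0.235 CPM in HET, with the 1 HET mouse named above at 20.9 CPM. With the replicate number as a block in E17.5 CX, where same-numbered mice deviated together, 55 genes were called in place of 1; the members had log2 fold changes of 0.25 (Hbb-bs), 0.29 (Hbb-bt), 0.24 (Hba-a1) and 0.28 (Hba-a2), with 0 called (adjusted p = 0.169 to 0.298) and 4 at an unadjusted p under 0.05.

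**Figure D5:**
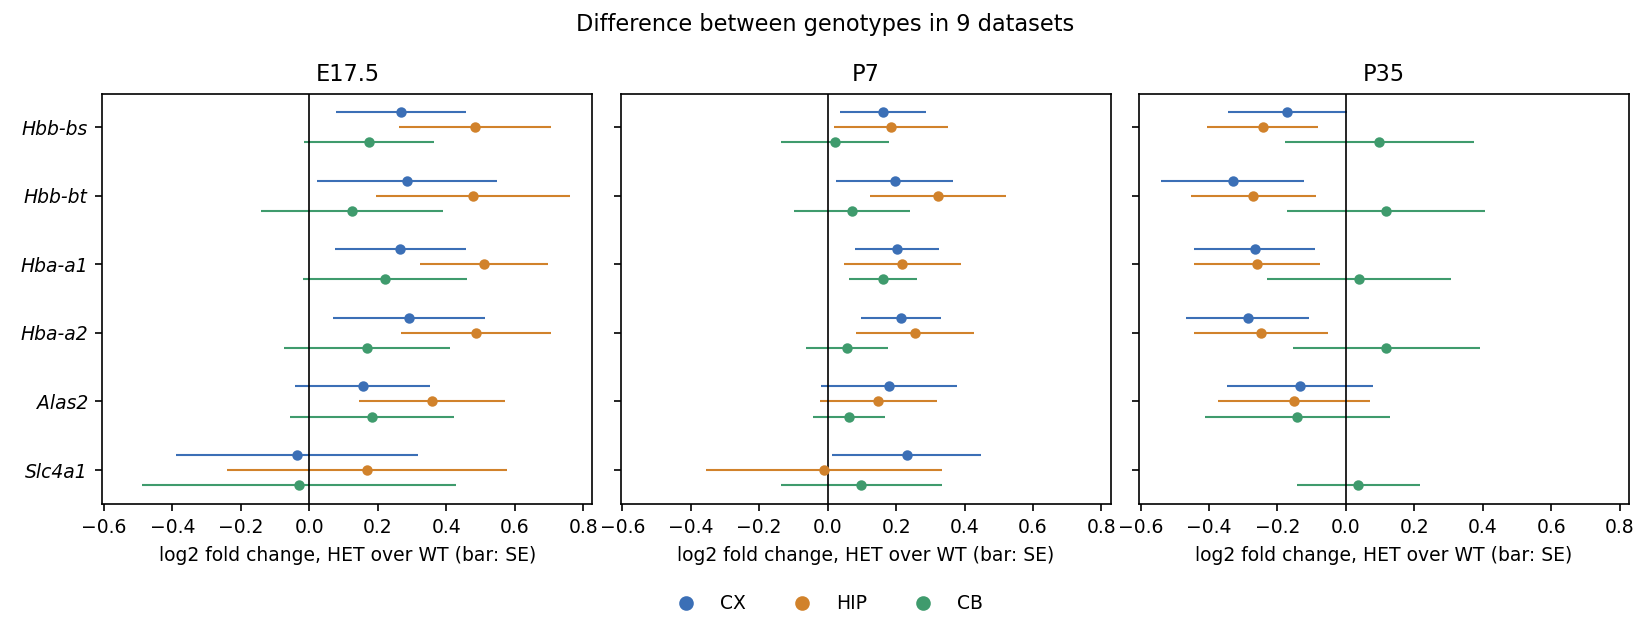
Log2 fold change of HET against WT (point) with its SE (bar) for Hbb-bs, Hbb-bt, Hba-a1, Hba-a2, Alas2 and Slc4a1 in each region and period. The largest values are those of E17.5 HIP (0.51 for Hba-a1), and 0 of the values passed an adjusted p of 0.1.

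Other genes of the pathway were taken from lists, described by counts and medians. They are to be read beside the shares of all genes called lower, given above, and higher, which were 44.5%, 42.1% and 40.3% in CX, HIP and CB from E17.5 to P7 and 38%, 36.2% and 41.8% from P7 to P35. Of 13 regulators of globin genes and erythroid cells, 9, 10 and 10 passed the filter in CX, HIP and CB; 4, 3 and 4 were called higher and 4, 6 and 4 lower from E17.5 to P7 (median log2 fold change 0.10, -0.69 and -0.07), and 2 higher in each region against 5, 6 and 8 lower from P7 to P35. Bcl11a, a repressor of embryonic and fetal globin genes that is also expressed in neurons, had a median of 251 CPM in E17.5 CX and 127 CPM at P7 (log2 fold change -1.02, SE 0.0736, adjusted p = 1.98e-14), and 75.1 and 21.5 CPM in CB (-1.90). Sox6, which acts beside it, fell by 0.73 on the log2 scale in CX (median 55.1 to 37.2 CPM), and Ldb1, an adaptor of erythroid transcription complexes with uses in many tissues, by 1.73 (172 to 53.2 CPM). The 3 are the regulators of highest level here. Gata1, the defining erythroid factor, was at 0 in all P35 CX and HIP libraries.

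Heme synthesis genes moved in both directions from E17.5 to P7, at shares near those of all genes. Of 11 genes on this list, which holds Alas1 in place of Alas2, 4, 4 and 6 were called higher and 5, 6 and 4 lower from E17.5 to P7 (medians -0.04, -0.12 and 0.16), and 8, 7 and 9 higher against 3, 0 and 1 lower from P7 to P35 (medians 0.37, 0.32 and 0.40). Alas1, the housekeeping form of the enzyme, rose from a median of 36.6 to 42.7 to 57.0 CPM in CX (log2 fold changes 0.26 and 0.34). Fech, which inserts iron into heme, rose from 23.99 to 34.96 to 45.7 CPM, and Tfrc, the transferrin receptor, from 67.7 to 133 to 179 CPM, all in CX and all called at both steps.

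Among 17 red cell membrane and late erythroid genes, 10, 8 and 9 passed the filter, and 5, 4 and 4 were called higher and 5, 3 and 4 lower from E17.5 to P7 (medians -0.16, 0.26 and 0.10), again near the shares of all genes. The genes with the highest level on this list are also expressed in neurons. Sptb, which encodes beta-spectrin, went from a median of 21.9 to 103 to 199 CPM in CX and from 107 to 128 to 507 CPM in CB. Ank1, which encodes ankyrin-1, went from 45.0 CPM at P7 to 381 CPM at P35 in CB, a log2 fold change of 3.01.

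Of other globin genes, Hbb-bh0, Hbb-bh2 and Hbb-bh3 had no count in any of the 102 libraries. Hbq1a and Hbq1b (theta) are near-identical copies and have counts that cannot be kept apart with certainty. Hbq1a had a median of 0.130 CPM in E17.5 CX, 0.643 CPM at P7 and 0.445 CPM at P35, called higher from E17.5 to P7 in CX (log2 fold change 2.04, adjusted p = 3.67e-09) and HIP (1.60). Hbq1b was called higher at that step in CX (0.60, adjusted p = 0.0145) and not in HIP (0.18, adjusted p = 0.408). From P7 to P35 both were called lower, Hbq1a at -0.63 in CX and -1.12 in HIP and Hbq1b by -2.53 and -2.14. In CB the medians of Hbq1a were 0.0749, 0.0426 and 0.0447 CPM and it did not pass the filter. All of the 4 tested genes of heme and globin clearance in CX and CB, and 3 of 4 in HIP, were called higher from E17.5 to P7, among them Hmox1, which breaks heme down, with log2 fold changes of 0.74, 1.18 and 0.90 in CX, HIP and CB.

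Markers of other cells of blood and vessels moved in both directions from E17.5 to P7. In CX, 4 of 4 tested platelet markers, 2 of 2 lymphocyte, 6 of 7 endothelial, 4 of 6 pericyte and mural, and 6 of 6 microglia markers were called higher, where 44.5% of all genes were. In HIP the platelet, lymphocyte and microglia markers tested were also all called higher, but the endothelial list gave 3 higher and 2 lower of 7 and the pericyte list 4 higher and 1 lower of 6. In CB 1 of 4 platelet markers was called higher and 1 lower, and 6 of 7 endothelial and 4 of 6 pericyte markers were called higher. Microglia markers summed to a median of 42.8, 140 and 329 CPM at the 3 ages in CX, and 46.9, 137 and 115 CPM in CB. Neutrophil markers were near 0, with medians of 0.26 to 1.10 CPM for the sum of 8 genes over the 9 period-by-region groups. No gene of these lists was called between genotypes.

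Genes whose variation between mice was most like that of the globins were ranked by Pearson's r of their deviations in log2 CPM from the mean of period, region and genotype, over all 102 libraries. Outside the 9 members, Tent5c came first (r = 0.84), and the first 10 also held Ube2l6 (0.59), Zfp41 (0.57), Aif1l, Mospd1, Sox4 and Chsy1 (0.56 each) and Ing4 (0.54). For comparison, Alas2 had an r of 0.91 and Slc4a1 one of 0.69. For the summed embryonic globins over the 36 E17.5 libraries, the first were Zfp41 and Sprtn (0.89 each), Rest (0.88), Lbh (0.87), Erbb2, Bcl2, Neurog2, Chp1, Nrarp and Gpc1 (0.86 each), while Slc4a1 had 0.69, Hbb-bt 0.67 and Alas2 0.35. These libraries share mice, and at E17.5 the prefixes, so the r is given as a description.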

How the data were processed

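RNA from 3 brain regions of 36 mice was ribodepleted and sequenced as stranded paired-end libraries. The expected counts per gene that the authors deposited were made, per the labels and the study's methods, with cutadapt 1.14, STAR 2.5.3a and RSEM 1.3 on GRCm38.p5 (mm10). RSEM divides reads that fit several genes, and 5.76% of the values were not whole; they were rounded here. Of 53465 genes, 53274 had a symbol. Coordinates are from GENCODE vM21 on GRCm38.

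edgeR 4.0.16 (R 4.3.3) was used with TMM factors, filterByExpr (minimum count 10, minimum total 15), the quasi-likelihood test and Benjamini-Hochberg adjustment over all genes tested, with a threshold of 0.1. Age was fitted within each region with genotype as covariate, genotype within each region and period, and region within each period with the mouse as block. Replicate numbers were given within each region and period. At E17.5 a number names the same mouse in every region, but at P7 and P35 it may not. In the fits of region, a left-out mouse is named by its number in CX. Same-numbered WT and HET mice deviated together in E17.5 CX (correlations 0.11 to 0.76, 6 of 6 pairs above 0.1). In the other 8 datasets not every pair was above 0.1. The median correlation was still 0.34 in E17.5 HIP, 0.29 in E17.5 CB and 0.17 in P7 CX (5 of 6 pairs above 0.1 in each). It was 0.11 to 0.19 in P7 CB and at P35, and -0.064 in P7 HIP. Pairs with different numbers had medians of -0.094 to 0.0018. The main genotype fits hold no such block. DESeq2 1.42.0, upper-quartile scaling, no filter, one genotype alone, the block and each mouse left out were alternatives. For genotype, a likelihood ratio test, estimated factors of unwanted variation and, at E17.5 and P7, a block by prefix were further alternatives. Shares and ratios were tested by permutation of libraries (100000 resamples, smallest p 1e-05, exact where enumerable, 2-sided, threshold 0.05) with NumPy 2.4.6 and SciPy 1.17.1, and the fits were tested on simulated data. A count of 0 was taken to allow 3 counts. Likeness used log2 CPM with a prior count of 2. P-values measure the spread between mice, except in the fits of region and of period by region. These hold the mouse as block, and their p-values measure the spread between regions within mice.

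All 9 members were named in every comparison, with Cul3 as a check, the 3 genes of highest mean CPM on each other list, and the 10 genes most like the summed adult and embryonic globins. Some genes that this rule names are not reported here. Gata1, Hmox1 and the other globins singled out were named after their values were seen. Of 124 genes on the other lists, 120 were matched. The members and lists were chosen with earlier results of these data known.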

Additional observations from a re-analysis of the deposited data

Results flagged for a closer look

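In 172 groups of 5 or 6 libraries (1 measure of a member in 1 period, region and genotype), 21 single libraries stood apart from the rest of their group by Dixon's test. Chance flags about 1 in 20 groups, so some of these are expected by chance alone. Of the 21, 13 are from 1 mouse, E17.5 HET replicate 4.

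That mouse stood apart in its embryonic globins in all 3 regions. Its Hbb-y level was 15.6 CPM in CB (others 0.121 to 2.44), 20.9 CPM in CX (0.0313 to 2.87) and 25.3 CPM in HIP (0.0606 to 2.99), and its Hbb-bh1 level in CB was 0.239 CPM. Its Hba-x level was 2.24 CPM in CB, 3.45 CPM in CX and 1.62 CPM in HIP. The embryonic share of beta-type counts was 3.52% in CB, 3.48% in CX and 3.43% in HIP, and that of alpha-type counts was 0.669%, 0.822% and 0.318%. The mouse carries the prefix S3, as do the next 3 mice in these measures, and what the prefix stands for was not tested. E17.5 WT replicate 4, also an S3 mouse, stood apart in CB in Hba-x (0.766 CPM) and in the alpha-type share (0.130%), and E17.5 HET replicate 3, another S3 mouse, in the ratio of alpha-type to beta-type counts in CB (0.901, others 0.684 to 0.765).

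The other libraries that stood apart were Hba-a1 and Hba-a2 in P35 CX WT replicate 4 (54.3 and 79.1 CPM, others 39.2 to 43.1 and 55.3 to 61.0), Hba-a1 in P35 HIP WT replicate 5 (51.6 CPM, others 29.8 to 35.7), Slc4a1 in P7 HIP HET replicate 1 (2.40 CPM, others 0.535 to 1.01) and Hbb-y in P7 HIP HET replicate 6 (0.112 CPM, others 0 to 0.0346). The P35 values are all from 1 mouse, which carries a different replicate number in CX and in HIP.

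The effect of period differed between regions, by the test of period by region, for Alas2 (adjusted p = 7.29e-15), Hba-a1 (1.51e-14), Hba-a2 (7.13e-13), Hbb-bs (4.64e-11), Hbb-bt (3.73e-12) and Slc4a1 (4.05e-16). In each the fall after E17.5 was smallest in CB.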

How the results depend on the processing

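Of 1297 alternatives to the results of a comparison, 1194 were the same, 85 weaker, 18 stronger and 0 reversed. Where the result was a count of members or of relations, a count close to the main one was taken as the same. A larger change of the count made it weaker or stronger. For shares and ratios, weaker meant a call lost and stronger a call gained. For single members within a comparison, 3339 of 3386 were unchanged, 34 lost the call, 12 gained one and 1 reversed, and 113 members that were not called changed sign. The reversal was Slc4a1 from E17.5 to P7 in CB with the S2 and S4 mice alone (0.48). The cause of the changes below was not tested.

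Members called at E17.5 for CB against CX were 0, but 1 with upper-quartile scaling, 1 in DESeq2 and 0 to 1 on leaving out a mouse. For HIP against CX at E17.5 they were 0, but 2 with upper-quartile scaling, 2 with no filter and 0 to 2 on leaving out a mouse. From P7 to P35 in CB the single call was 0 with no filter, with WT alone and with HET alone, and 0 to 2 on leaving out a mouse, and in CX the WT libraries alone gave 2. With no filter, which lets embryonic globins in, 8 members were called from E17.5 to P7 in CB, and 9 for the prefix in E17.5 CB and 3 in P7 CB, the former with the embryonic globins that prompted the test.

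The fall of the embryonic beta-type share from E17.5 to P7 was -0.110 in CX, -0.109 in HIP and -0.113 in CB with WT alone, -0.666 in CX and -0.639 in HIP with HET alone, and -0.0133 in HIP with the S2 and S4 mice, each with the call lost (adjusted p 0.0519 to 0.152 by permutation). On leaving out a mouse it ran from -0.423 to -0.107 in CX, -0.408 to -0.0969 in HIP and -0.424 to -0.104 in CB. Each P7 mouse left out raised the adjusted p above 0.05 (up to 0.0817) with the value hardly moved, and the groups were then unequal in size. The alpha-type share with WT alone was -0.0371 in CB and -0.0436 in HIP, with the call lost (permutation test, adjusted p = 0.132 in each). From P7 to P35 the log2 ratio of Alas2 to globin counts with HET alone was -0.178 in CB (call gained, adjusted p = 0.0468 by permutation) and -0.163 in HIP (lost, 0.278), and the log2 alpha to beta ratio was -0.0893 with WT and -0.211 with HET in CB (lost, 0.182 and 0.188) and -0.134 with HET in CX (gained, 0.0297), with left-out ranges of -0.175 to -0.111 in CB and -0.100 to -0.0581 in CX.

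The replicate block moved the call of Slc4a1 from P7 to P35 in CB to 0 members. Without the block by mouse, HIP against CX gave 1 member at P35 and 0 at P7 (0 to 1 on leaving out a mouse). In the genotype fits the block called 0 members in all 9 datasets (at an unadjusted p under 0.05, 5 in E17.5 HIP, 4 in E17.5 CX, 4 in P7 CX, 3 in P35 CX, 1 in P7 HIP, 1 in P7 CB and 0 in the other 3), while the count over all genes in E17.5 CX went from 1 to 55. In the age fits the block changed no other member's call. DESeq2 called 218 genes of all tested in P35 CB between genotypes, against 1 in edgeR, with 0 members among them. Counts of embryonic globins are low outside the S3 mice, and changes there at the level of 1 to 3 counts were not detectable at this depth.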

Other observations

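The 2 P35 mice left out of every comparison had globin levels within the range of the others in most libraries. The mouse labelled WT had Hbb-bs at 71.9 CPM in CX, 71.1 CPM in HIP and 138 CPM in CB, the last 2 just below the lowest P35 library used. The mouse labelled HET had 102, 89.0 and 311 CPM. Alas2 was at 2.52, 2.05 and 5.66 CPM in the first and 3.56, 2.20 and 10.5 CPM in the second, and Slc4a1 at 0.142, 0.139 and 1.01 CPM and at 0.266, 0.0905 and 1.51 CPM. Hba-x was at 0 in all 6 libraries, as in all other P35 libraries. These values are given with no group, since the sources used here disagree on the genotype of both mice.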
